A study of Danio rerio with 11 samples.

Results

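The 10 genes described here mark macrophages and neutrophils, the phagocytic white blood cells that enter zebrafish tissues from the blood or reside in them. They are mpeg1.1, marco, csf1ra, csf1rb, spi1a, spi1b, lcp1, coro1a, mpx and lyz, and they were taken by gene name from the deposited tables. Each name occurs once among the 35889 genes of the count table, and all 10 passed the expression filter that left 19421 genes for testing. The RNA came from fully grown follicles, over 650 µm, of adult female zebrafish at 180 days after fertilisation. Such a follicle is an oocyte inside a wall of granulosa cells, theca cells and vessels, so RNA of immune cells can reach a library only as a small part of the whole.

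Libraries of 3 groups were compared. The lhb/lhcgr mutant group (4 libraries) is homozygous mutant for lhb, which encodes the luteinizing hormone beta subunit, and for lhcgr, the gene of its receptor, with 1 mutant copy each of fshb and fshr. Mutants of the second kind, fshb/lhcgr (4 libraries), are homozygous mutant for fshb, the follicle-stimulating hormone beta subunit gene, and for lhcgr, with 1 mutant copy each of lhb and fshr. The control group (3 libraries) is heterozygous at all 4 loci, so no group is wild type, and both mutant groups are homozygous at lhcgr. The sources used here give neither the kind of allele at each locus nor whether each numbered library is a different fish. The p-values therefore rest on the spread among these libraries, and that spread may be technical.

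Macrophages depend on the receptor tyrosine kinase Csf1r and its ligands Csf1 and Il34, and both macrophages and neutrophils arise under the transcription factor PU.1, encoded by spi1 genes. Zebrafish kept duplicate copies of both, csf1ra with csf1rb and spi1a with spi1b. Macrophages are known from mammalian ovaries for clearing cells of regressing follicles, and leukocytes gather in the follicle wall around ovulation. Neutrophils carry granules that hold myeloperoxidase and digestive enzymes, and both cell types move by remodelling actin.

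Total counts were 15525728, 15694540, 25484718 and 15776603 in lhb/lhcgr mutants 1 to 4, 14179252 to 15805763 over fshb/lhcgr mutants, and 15233928 to 15554138 over controls. Only lhb/lhcgr mutant 3 was deeper than the rest. Transcripts of the receptor gene lhcgr were counted in every library (1899 to 5051 counts in lhb/lhcgr mutants, 1645 to 2458 in fshb/lhcgr mutants and 1645 to 4735 in controls), and those of lhb at 10 to 160, 25 to 97 and 294 to 537 counts in the same groups. With the alleles not given, transcript counts do not check the labels of lhcgr. All 12 oocyte markers and all 9 granulosa markers listed had counts in every library. Levels are given in CPM, each gene's count as a share of its library (counts per 1000000), with library sizes scaled by edgeR's TMM factors, and differences as log2 differences with a standard error (SE). Each adjusted p comes from the quasi-likelihood test of edgeR, adjusted over all 19421 genes by the Benjamini-Hochberg method, and a gene was called at an adjusted p under 0.05. For edgeR, the SE is the size of the log2 difference divided by the root of its test statistic. Intervals are 95% intervals of the log2 difference built from that SE, so both are approximate.

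No marker gene was called in any of the 3 comparisons, and the groups' means hid libraries that lay far apart. In lhb/lhcgr mutants the 10 markers summed to 21.9, 42.3, 105.8 and 108.3 CPM in libraries 1 to 4. In fshb/lhcgr mutants they summed to 25.4, 52.7, 49.8 and 54.2 CPM, against 13.7, 43.1 and 39.8 CPM in controls 1 to 3. lhb/lhcgr mutants 3 and 4 were thus above every other library, lhb/lhcgr mutants 1 and 2 lay inside the control range, and the libraries numbered 1 were the lowest of each group. Fewer cells of a type and less RNA per cell cannot be told apart in such bulk libraries.

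**Figure D1:**
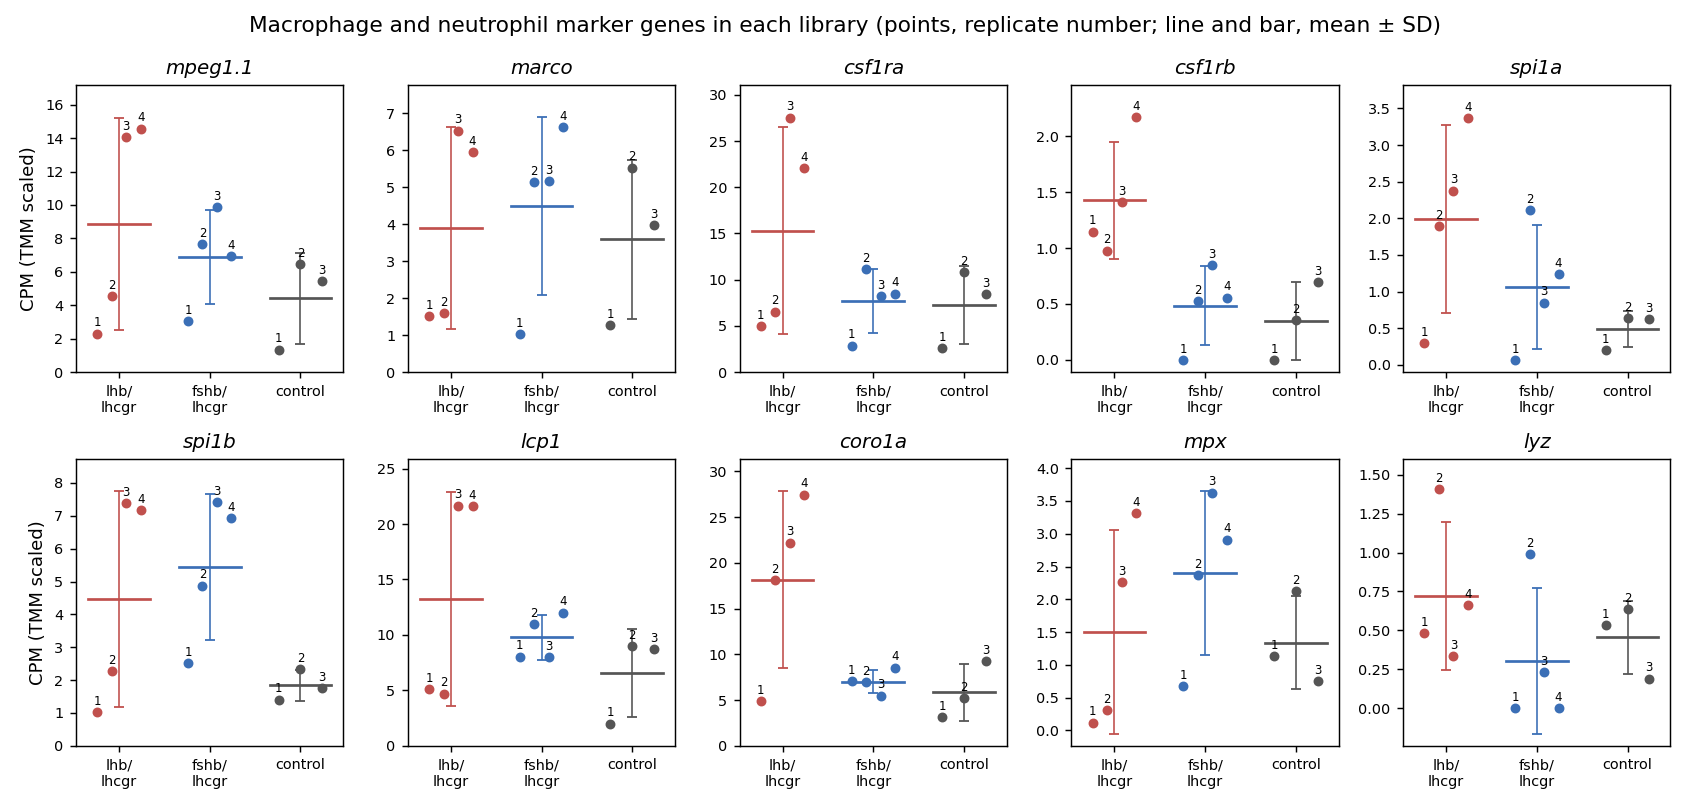
Level of each of the 10 marker genes (vertical axis, CPM scaled by TMM factors) in every library of the lhb/lhcgr mutant, fshb/lhcgr mutant and control groups, each point labelled with its replicate number, with the group mean as a line and the SD as a bar. In mpeg1.1, csf1ra and lcp1 the lhb/lhcgr mutants 3 and 4 stand apart from lhb/lhcgr mutants 1 and 2, which lie among the controls.

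The macrophage markers mpeg1.1 and marco had low and high libraries in each group and were not called. mpeg1.1 (ENSDARG00000055290) encodes perforin-2, a pore-forming protein that macrophages use against bacteria they have taken up, and its promoter drives the usual macrophage reporter lines of zebrafish. It had 2.29, 4.52, 14.0 and 14.6 CPM in lhb/lhcgr mutants, 3.07, 7.65, 9.88 and 6.93 CPM in fshb/lhcgr mutants, and 1.34, 6.46 and 5.42 CPM in controls. Only lhb/lhcgr mutants 3 and 4 were above all of the other libraries, and the 3 groups overlapped. The means were 8.86 ± 6.36 CPM in lhb/lhcgr mutants, 6.88 ± 2.83 CPM in fshb/lhcgr mutants (SD, n = 4 each) and 4.41 ± 2.71 CPM in controls (SD, n = 3). The log2 difference from controls was 1.01 (SE 0.66, edgeR adjusted p = 0.381) in the lhb/lhcgr group and 0.64 (SE 0.66, edgeR adjusted p = 0.752) in fshb/lhcgr mutants. Reads could be shared with its close copy mpeg1.2, whose level was 11.2 ± 5.47 CPM in lhb/lhcgr mutants, 7.02 ± 2.13 CPM in fshb/lhcgr mutants (SD, n = 4 each) and 10.9 ± 7.82 CPM in controls (SD, n = 3).

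marco (ENSDARG00000059294) encodes a scavenger receptor by which macrophages bind bacteria and particles. It had 1.51, 1.59, 6.54 and 5.96 CPM in lhb/lhcgr mutants, 1.02, 5.14, 5.17 and 6.62 CPM in fshb/lhcgr mutants, and 1.27, 5.53 and 3.97 CPM in controls. Every group held both low and high libraries, and the highest control was above lhb/lhcgr mutants 1 and 2. The group means were close, at 3.90 ± 2.72 and 4.49 ± 2.41 CPM in lhb/lhcgr and fshb/lhcgr mutants (SD, n = 4 each) and 3.59 ± 2.16 CPM in controls (SD, n = 3). The interval of the log2 difference between lhb/lhcgr mutants and controls ran over -1.35 to 1.60 and that between fshb/lhcgr mutants and controls over -1.16 to 1.81, so changes of more than 2 times in either direction were not excluded by either interval.

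Of the receptor genes, csf1ra gave the more abundant transcript. csf1ra (ENSDARG00000102986) encodes the Csf1 receptor of macrophages, and in zebrafish also of yellow pigment cells. It had 5.01, 6.54, 27.5 and 22.0 CPM in lhb/lhcgr mutants, 2.87, 11.1, 8.26 and 8.48 CPM in fshb/lhcgr mutants, and 2.61, 10.8 and 8.45 CPM in controls. lhb/lhcgr mutants 3 and 4 had more than any other library, and lhb/lhcgr mutants 1 and 2 had less than controls 2 and 3. The log2 difference between lhb/lhcgr mutants and controls was 1.07 (SE 0.66, edgeR adjusted p = 0.346), and that between fshb/lhcgr mutants and controls was 0.08 (SE 0.65, edgeR adjusted p = 0.976). The 12 pigment cell genes listed, not limited to genes of yellow pigment cells, summed to 22.9 to 37.7 CPM in lhb/lhcgr mutants. The sums were 21.7 to 25.7 CPM in fshb/lhcgr mutants and 22.6 to 31.1 CPM in controls. Among lhb/lhcgr mutants they were lowest in libraries 3 and 4. Whether pigment cells gave part of the csf1ra transcripts was not tested.

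csf1rb (ENSDARG00000053624), the duplicate receptor gene, acts in early blood cell formation in zebrafish. It gave 19, 16, 38 and 36 counts in lhb/lhcgr mutants (1.15, 0.978, 1.41 and 2.17 CPM), 0, 8, 11 and 9 counts in fshb/lhcgr mutants (0, 0.527, 0.849 and 0.557 CPM), and 0, 5 and 11 counts in controls (0, 0.355 and 0.693 CPM). All 4 lhb/lhcgr mutants were above every control and every fshb/lhcgr mutant, and csf1rb was the only marker for which this held in both. A count of 0 allowed up to 0.205 CPM in fshb/lhcgr mutant 1 and 0.201 CPM in control 1, where 3 counts are the floor and counting error alone is covered. The fitted log2 difference between lhb/lhcgr mutants and controls was 2.00 (SE 1.06, edgeR adjusted p = 0.268), that between fshb/lhcgr mutants and controls 0.45 (SE 1.06, edgeR adjusted p = 0.905), and that between fshb/lhcgr and lhb/lhcgr mutants -1.55 (SE 0.93, edgeR adjusted p = 0.412). Among all genes tested, 11.2% did not overlap and were higher in lhb/lhcgr mutants than in controls, and 6.38% did not overlap and were lower in fshb/lhcgr than in lhb/lhcgr mutants, so a marker or 2 of 10 is near that background. Per length, in the authors' FPKM, the mean level of csf1ra was 8.41 times that of csf1rb in lhb/lhcgr mutants, 12.5 times in fshb/lhcgr mutants and 16.4 times in controls.

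The ligand genes were also counted at low levels. csf1a averaged 3.46 ± 1.58 CPM in lhb/lhcgr mutants, 4.19 ± 1.52 CPM in fshb/lhcgr mutants (SD, n = 4 each) and 3.14 ± 1.86 CPM in controls (SD, n = 3). For il34 the means were 2.70 ± 1.15, 0.778 ± 0.650 and 1.29 ± 1.1 CPM in the same groups. Every lhb/lhcgr mutant had more il34 than every fshb/lhcgr mutant, with a log2 difference of -1.78 for fshb/lhcgr minus lhb/lhcgr mutants (SE 0.76, edgeR adjusted p = 0.237). The same held for 6.38% of all genes tested. The second csf1 copy, csf1b, gave at most 11 counts in a library and did not pass the expression filter.

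Of the transcription factor genes, spi1a was read rarely and spi1b was the one marker above all controls in every fshb/lhcgr mutant. spi1a (ENSDARG00000067797) gave 5, 31, 64 and 56 counts in lhb/lhcgr mutants, 1, 32, 11 and 20 counts in fshb/lhcgr mutants, and 3, 9 and 10 counts in controls. These are 0.302, 1.90, 2.38 and 3.37 CPM in lhb/lhcgr mutants, 0.0682, 2.11, 0.849 and 1.24 CPM in fshb/lhcgr mutants, and 0.201, 0.639 and 0.630 CPM in controls. lhb/lhcgr mutants 2 to 4 and fshb/lhcgr mutants 2 to 4 were above all controls, while the library numbered 1 of each mutant group lay among or below them. The log2 difference was 2.01 (SE 0.94, edgeR adjusted p = 0.203) between lhb/lhcgr mutants and controls and 1.11 (SE 0.93, edgeR adjusted p = 0.677) between fshb/lhcgr mutants and controls.

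spi1b (ENSDARG00000000767), the PU.1 copy used most in studies of zebrafish myeloid cells, had 1.03, 2.26, 7.39 and 7.17 CPM in lhb/lhcgr mutants, 2.52, 4.88, 7.41 and 6.93 CPM in fshb/lhcgr mutants, and 1.41, 2.34 and 1.76 CPM in controls. The controls were close together here, all fshb/lhcgr mutants lay above them, and so did lhb/lhcgr mutants 3 and 4. The means were 4.46 ± 3.29 CPM in lhb/lhcgr mutants, 5.44 ± 2.23 CPM in fshb/lhcgr mutants (SD, n = 4 each) and 1.84 ± 0.472 CPM in controls (SD, n = 3). The log2 difference between fshb/lhcgr mutants and controls was 1.56 (SE 0.63, interval 0.22 to 2.90), with an edgeR p of 0.0257 before adjustment and an adjusted p of 0.367. Among all genes tested, 11.8% had an unadjusted p under 0.05 in that comparison and 5.26% did not overlap and were higher. Between lhb/lhcgr mutants and controls the log2 difference was 1.28 (SE 0.62, edgeR adjusted p = 0.219). In FPKM the mean level of spi1b was 2.08 times that of spi1a in lhb/lhcgr mutants, 4.71 times in fshb/lhcgr mutants and 3.47 times in controls, and the related gene spic had 0 counts in every library.

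The actin regulators lcp1 and coro1a, which all leukocytes carry, were the most abundant of the markers per length. lcp1 (ENSDARG00000023188) encodes L-plastin, which bundles actin filaments. It had 5.13, 4.71, 21.7 and 21.6 CPM in lhb/lhcgr mutants, 8.05, 11, 8.03 and 12.0 CPM in fshb/lhcgr mutants, and 2.01, 9.01 and 8.70 CPM in controls. lhb/lhcgr mutants 3 and 4 had the highest levels, whereas lhb/lhcgr mutants 1 and 2 were below controls 2 and 3. The log2 difference between lhb/lhcgr mutants and controls was 1.02 (SE 0.61, edgeR adjusted p = 0.332), and that between fshb/lhcgr mutants and controls was 0.57 (SE 0.60, edgeR adjusted p = 0.759).

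coro1a (ENSDARG00000054610), the coronin of leukocytes, had the smallest edgeR p of the 10 markers in lhb/lhcgr mutants. Its levels were 4.89, 18.1, 22.2 and 27.5 CPM in lhb/lhcgr mutants, 7.10, 6.92, 5.48 and 8.54 CPM in fshb/lhcgr mutants, and 3.15, 5.18 and 9.27 CPM in controls. Here lhb/lhcgr mutants 2, 3 and 4 were high and only lhb/lhcgr mutant 1 lay among the controls, while the fshb/lhcgr mutants stayed inside the control range. The means were 18.2 ± 9.64 CPM in lhb/lhcgr mutants, 7.01 ± 1.25 CPM in fshb/lhcgr mutants (SD, n = 4 each) and 5.86 ± 3.12 CPM in controls (SD, n = 3). The log2 difference between lhb/lhcgr mutants and controls was 1.63 (SE 0.50, interval 0.56 to 2.70), a fold of 3.09, with an edgeR p of 0.00571 before adjustment and an adjusted p of 0.0624. Between fshb/lhcgr and lhb/lhcgr mutants it was -1.37 (SE 0.45, interval -2.33 to -0.41), with an edgeR p of 0.00840 before adjustment and an adjusted p of 0.123. DESeq2 called coro1a in both comparisons, with adjusted p = 0.00928 and 0.0322, where it called 15.6% and 7.68% of all genes tested. DESeq2 made more false calls than edgeR on simulated counts. Those counts were drawn with edgeR's own spread estimates, so they cannot rank the tools for these data. edgeR called coro1a against controls when lhb/lhcgr mutant 1 (adjusted p = 0.0196) or control 3 (adjusted p = 0.0432) was left out. Between the mutants it did so when lhb/lhcgr mutant 1 was left out (adjusted p = 0.0246). In these settings 3.85%, 5.97% and 2.22% of all genes tested were called. These were the lowest lhb/lhcgr mutant and the highest control for coro1a, so a larger difference follows from leaving them out. No other single left-out library gave a call by edgeR, with adjusted p up to 0.211 against controls and 0.317 between the mutants. limma-voom did not call coro1a (adjusted p = 0.134 and 0.246). Which cells gave the coro1a transcripts was not tested.

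The neutrophil granule genes mpx and lyz were counted at low levels, and neither was called. mpx (ENSDARG00000019521) encodes myeloperoxidase, which makes hypochlorous acid in neutrophil granules. It gave 2, 5, 61 and 55 counts in lhb/lhcgr mutants, 10, 36, 47 and 47 counts in fshb/lhcgr mutants, and 17, 30 and 12 counts in controls. These are 0.121, 0.306, 2.27 and 3.31 CPM in lhb/lhcgr mutants, 0.682, 2.37, 3.63 and 2.91 CPM in fshb/lhcgr mutants, and 1.14, 2.13 and 0.756 CPM in controls. lhb/lhcgr mutants 1 and 2 had the lowest levels of all libraries and lhb/lhcgr mutants 3 and 4 were above every control, so that the group mean described no library in it. The log2 difference was 0.17 (SE 0.88, edgeR adjusted p = 0.935) between lhb/lhcgr mutants and controls and 0.84 (SE 0.89, edgeR adjusted p = 0.761) between fshb/lhcgr mutants and controls. The first of these turned negative with limma-voom and in other alternatives.

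lyz (ENSDARG00000057789), a lysozyme gene whose promoter is used to label neutrophils in zebrafish, was counted too rarely to order the groups. It gave 8, 23, 9 and 11 counts in lhb/lhcgr mutants, 0, 15, 3 and 0 counts in fshb/lhcgr mutants, and 8, 9 and 3 counts in controls. These are 0.483, 1.41, 0.334 and 0.662 CPM in lhb/lhcgr mutants, 0, 0.989, 0.232 and 0 CPM in fshb/lhcgr mutants, and 0.535, 0.639 and 0.189 CPM in controls. A count of 0 allowed up to 0.205 CPM in fshb/lhcgr mutant 1 and 0.186 CPM in fshb/lhcgr mutant 4. Its highest library was lhb/lhcgr mutant 2, which had little mpx, and the interval of the log2 difference between lhb/lhcgr mutants and controls spanned -1.83 to 3.14.

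Across the 10 markers, per length, the authors' FPKM put coro1a first at a mean of 5.83 over all libraries, followed by lcp1 at 4.38, csf1ra at 2.76, mpeg1.1 at 2.58, marco at 1.92, spi1b at 1.63, lyz at 0.811, spi1a at 0.535, mpx at 0.467 and csf1rb at 0.268. coro1a thus lay above 53.2% of all genes tested and csf1rb above 5.50%. The neighbours csf1ra and mpeg1.1 overlapped in every group and traded places between libraries. Within groups the markers had a larger median spread than all genes tested. They were chosen with the differences among lhb/lhcgr libraries already known, so this spread is no separate evidence. The genes tested were also not matched to the markers in level. The median SD of log2 CPM among libraries of a group was 1.12, 0.703 and 0.673 for the markers in lhb/lhcgr mutants, fshb/lhcgr mutants and controls, against 0.312, 0.362 and 0.390 for all genes tested. The median biological coefficient of variation, edgeR's estimate of relative spread between replicates, was 0.603 for the markers (0.444 for coro1a to 0.892 for lyz) and 0.330 for all genes tested.

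Library by library, lhb/lhcgr mutants 3 and 4 stood out. Counted against the highest control, 1, 4, 9 and 10 of the 10 markers were above it in lhb/lhcgr mutants 1, 2, 3 and 4, where 29.6%, 28%, 30.3% and 29.8% of all genes tested were. In fshb/lhcgr mutants 1 to 4 the counts were 1, 7, 5 and 6 of 10, where 22.4%, 26.4%, 25.7% and 24.3% of all genes tested were. lhb/lhcgr mutants 3 and 4 were among the top 2 of the 11 libraries for 8 and 7 of the markers. Because the markers were chosen with the differences among lhb/lhcgr libraries already known, these counts describe that split and are no separate evidence. At the other end, control 1, lhb/lhcgr mutant 1 and fshb/lhcgr mutant 1 were among the lowest 3 libraries for 8, 8 and 7 of the markers. Those libraries hold the same replicate number, and whether the number marks a shared day or batch is not given in the sources used here. The number is that of the sample titles, and the authors' own library names number the control differently from the mutants.

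**Figure D2:**
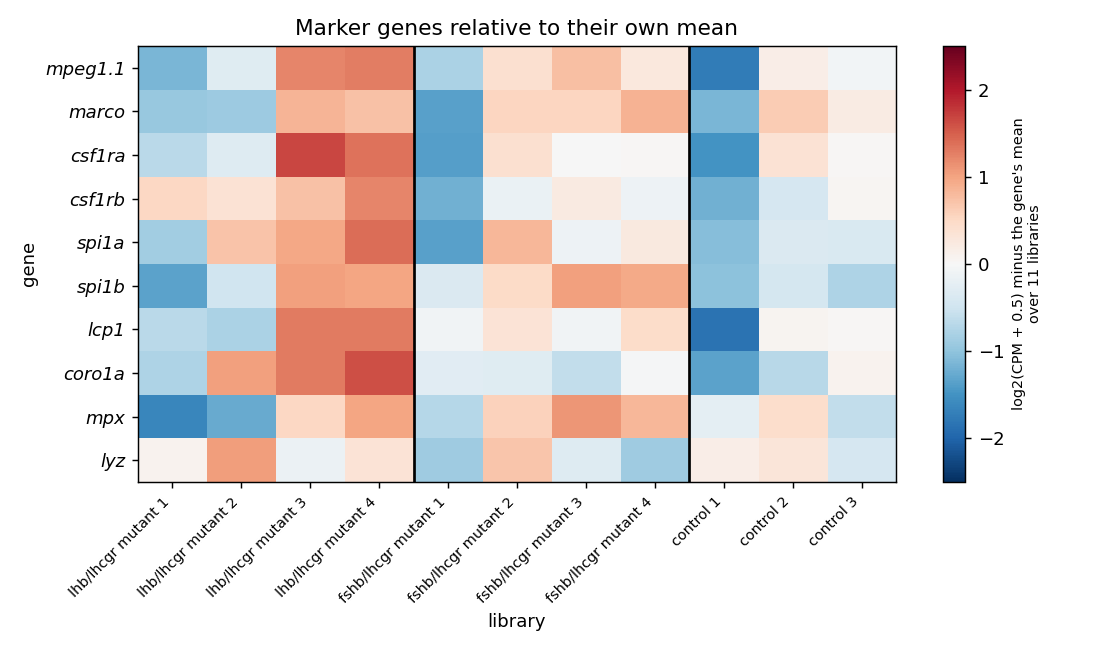
Each marker gene (rows) in each library (columns, grouped as lhb/lhcgr mutant, fshb/lhcgr mutant and control), as log2(CPM + 0.5) minus the gene's own mean over 11 libraries. lhb/lhcgr mutants 3 and 4 are above the mean for all markers but lyz in lhb/lhcgr mutant 3, and the libraries numbered 1 are mostly below it.

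As groups, lhb/lhcgr mutants had a log2 difference above 0 from controls for 10 of 10 markers, where 50.7% of all genes tested had one. Markers that share libraries and were chosen with earlier results known are not separate observations. Counts of their signs are therefore descriptions in each comparison. The median of the markers was 1.04, against 0.01 for all genes tested. None was called, where 7.34% of all genes tested were, and 1 (coro1a) had an unadjusted p under 0.05, where 24.9% of all genes tested did. In the authors' deposited table, 4 of the 10 markers had an unadjusted p under 0.05 (csf1rb, spi1a, spi1b and coro1a), where 18.5% of its genes did. Without lhb/lhcgr mutants 3 and 4 the median was -0.24 and 4 of 10 differences were above 0 (csf1rb, spi1a, coro1a and lyz). These libraries were the highest for the markers and were picked for removal with earlier results of these data known, so a lower median follows from the choice.

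In fshb/lhcgr mutants 9 of 10 differences from controls were above 0, lyz being the exception, where 47.5% of all genes tested were above 0. The median was 0.51, against -0.03 for all genes tested. None was called, where 0.0721% of all genes tested were, and spi1b alone had an unadjusted p under 0.05, also in the authors' deposited table, where its p was 0.00144 and 7.95% of all genes there were under 0.05. Without control 1 the median was 0.05 and 5 of 10 differences were above 0. Control 1 had the lowest summed level of the controls, so a lower median follows from leaving it out. Without control 2 the median was 0.82, and without control 3 it was also 0.82, each with 9 of 10 differences above 0. Both mutant groups were set against the same 3 controls, so their differences are not independent.

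Directly between the mutants, fshb/lhcgr minus lhb/lhcgr, 3 of 10 differences were above 0 (marco, spi1b and mpx), where 47.9% of all genes tested were, and the median was -0.67, against -0.02 for all genes tested. None was called, where 2.37% of all genes tested were, and coro1a alone had an unadjusted p under 0.05, where 18% did. Without lhb/lhcgr mutants 3 and 4 the median turned to 0.70 and 6 of 10 differences were above 0. As these libraries were the highest for the markers, a higher median follows from the choice here too. An edgeR test that misses the threshold does not show that the groups have equal levels. The intervals of the log2 differences included 2-fold changes in at least 1 direction for all 10 markers in each comparison.

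**Figure D3:**
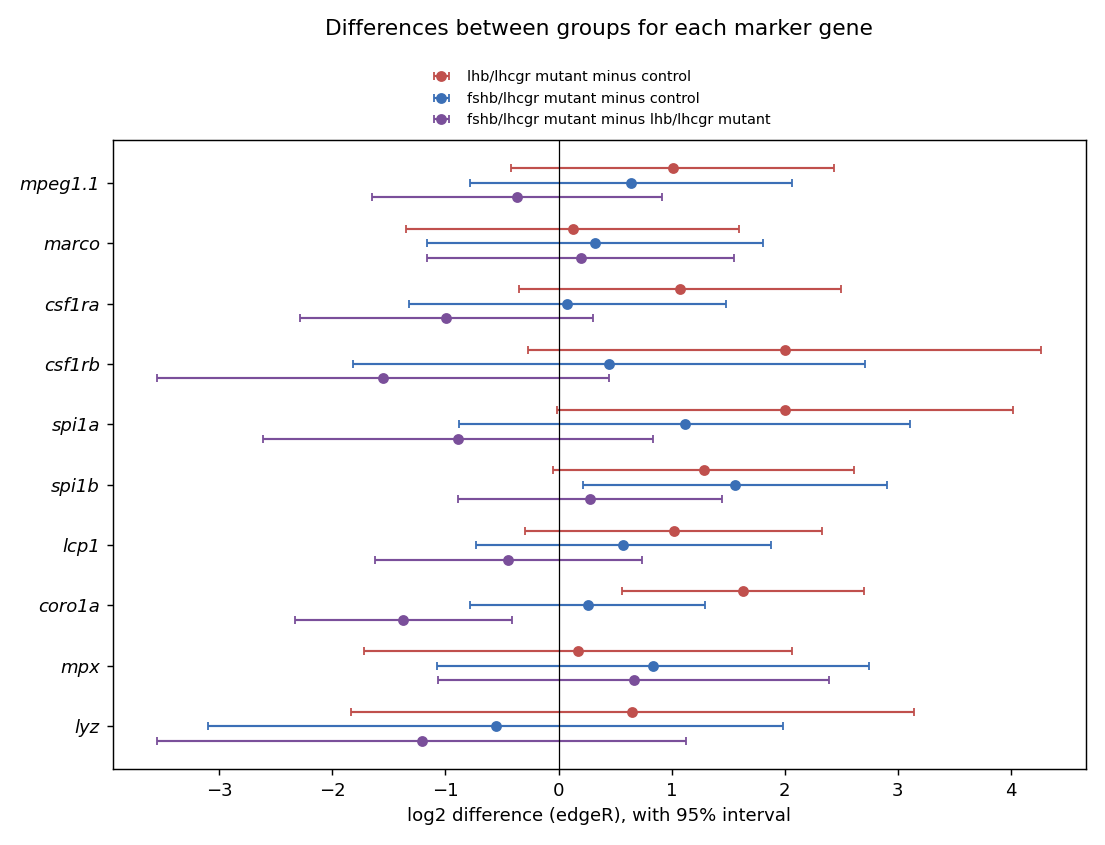
Log2 difference of each marker gene (rows) for lhb/lhcgr mutant minus control, fshb/lhcgr mutant minus control and fshb/lhcgr mutant minus lhb/lhcgr mutant, with the 95% interval from the edgeR fit as a bar. Intervals leave out 0 for coro1a in lhb/lhcgr mutants against controls and between the mutants, and for spi1b in fshb/lhcgr mutants against controls, before adjustment for the number of genes tested.

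Other genes of the same cells were read from wider lists. Of 22 further macrophage genes tested, none was called in any comparison. Of all genes tested, 7.34% were called for lhb/lhcgr minus control, 0.0721% for fshb/lhcgr minus control and 2.37% for fshb/lhcgr minus lhb/lhcgr. All 22 had a log2 difference above 0 between lhb/lhcgr mutants and controls (median 0.71), where 50.7% of all genes tested did. Between fshb/lhcgr mutants and controls 12 of 22 did (median 0.14), where 47.5% of all genes tested did. Genes of a list share libraries, and the lists were chosen with earlier results known. Their signs, here and in the lists below, are thus not separate observations. In alternatives chosen after seeing the data, 10 of 22 were above 0 with a median of -0.28 without lhb/lhcgr mutants 3 and 4, and 19 of 22 with a median of 0.34 without control 1. cd74a, the invariant chain of antigen presentation, had 47.9, 54.9, 63.4 and 56.2 CPM in lhb/lhcgr mutants, 30.4, 27.4, 33.6 and 17.5 CPM in fshb/lhcgr mutants, and 7.83, 39.4 and 18.2 CPM in controls. Unlike most of the 10 markers, cd74a was above all controls in all 4 lhb/lhcgr mutants, including libraries 1 and 2, with a log2 difference of 1.35 (SE 0.41, edgeR adjusted p = 0.0640). Of all genes tested, 11.2% were likewise above all controls in all 4 lhb/lhcgr mutants. The most abundant gene of the list, the cathepsin S gene ctss2.1, had 887 to 1171 CPM in lhb/lhcgr mutants, 1172 to 1572 CPM in fshb/lhcgr mutants and 971 to 1159 CPM in controls.

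Some listed genes were all but absent from some libraries and abundant in others of the same group. apoeb, which encodes an apolipoprotein E and is a marker of zebrafish microglia, had 1.87, 491, 520 and 448 CPM in lhb/lhcgr mutants, 6.41, 17.7, 45.1 and 114 CPM in fshb/lhcgr mutants, and 0.602, 3.97 and 506 CPM in controls. The collagenase gene mmp13a (ENSDARG00000114451) had 1.63, 904, 808 and 980 CPM in lhb/lhcgr mutants, 2.46, 10.7, 37.4 and 93.5 CPM in fshb/lhcgr mutants, and 0.335, 0.071 and 636 CPM in controls. In both genes lhb/lhcgr mutant 2 and control 3 were high, libraries in which the 10 markers summed to 42.3 and 39.8 CPM. The gelatinase gene mmp9 had 17.1, 77.9, 319 and 150 CPM in lhb/lhcgr mutants, 13.3, 9.76, 9.03 and 17.0 CPM in fshb/lhcgr mutants, and 10.7, 5.96 and 40.4 CPM in controls, with a log2 difference from controls of 2.89 in lhb/lhcgr mutants (SE 0.97, edgeR adjusted p = 0.101). The protease gene lgmn had 138, 355, 404 and 414 CPM in lhb/lhcgr mutants, 131, 187, 179 and 175 CPM in fshb/lhcgr mutants, and 102, 118 and 499 CPM in controls. Whether phagocytes or cells of the follicle wall gave these transcripts was not tested.

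**Figure D4:**
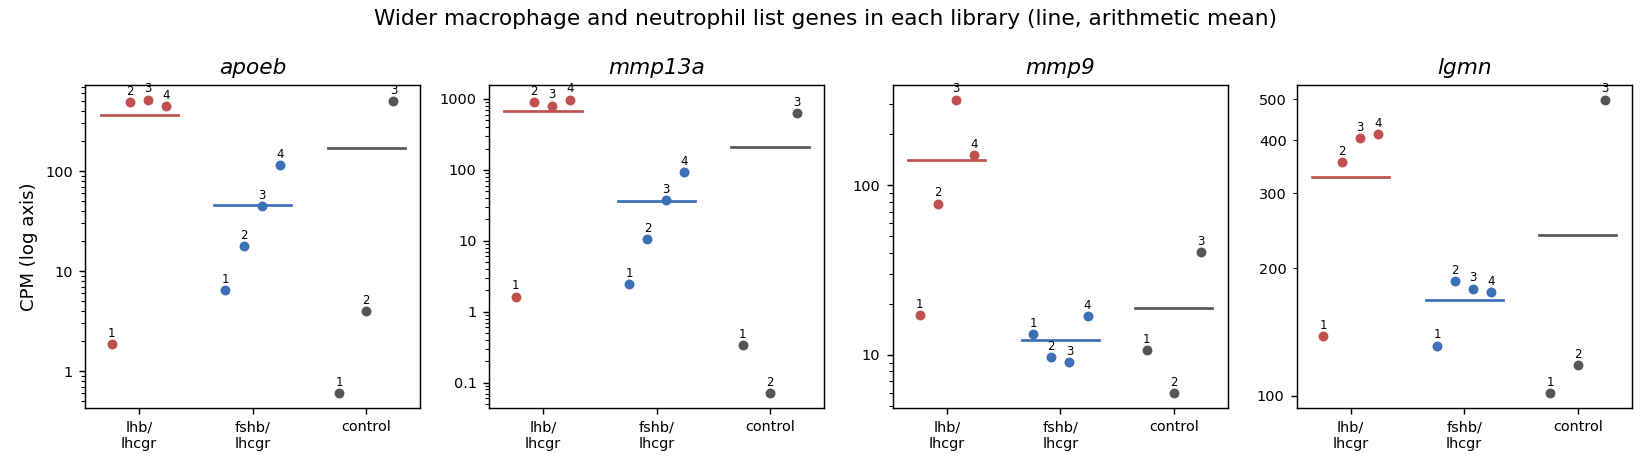
Levels of apoeb, mmp13a, mmp9 and lgmn from the wider macrophage and neutrophil lists in every library (vertical axis, CPM on a log axis), with replicate numbers beside the points and the arithmetic mean of each group as a line. In apoeb and mmp13a, lhb/lhcgr mutants 2 to 4 and control 3 are far above lhb/lhcgr mutant 1 and controls 1 and 2, and the fshb/lhcgr mutants lie between.

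Also high in CPM among the further neutrophil genes were adam8a, at 16.9, 137, 108 and 121 CPM in lhb/lhcgr mutants, 47.3 to 78.3 CPM in fshb/lhcgr mutants and 51.2, 45.2 and 115 CPM in controls, and cebpb, at 40.3 to 86.5, 20.9 to 36.7 and 18.5 to 61.7 CPM in the same groups. The further neutrophil genes gave no call among 15 tested in any comparison, with 12, 9 and 4 differences above 0 and medians of 0.50, 0.11 and -0.32 for lhb/lhcgr minus control, fshb/lhcgr minus control and fshb/lhcgr minus lhb/lhcgr. Of all genes tested, 50.7%, 47.5% and 47.9% were above 0 in these comparisons, and 7.34%, 0.0721% and 2.37% were called. Without lhb/lhcgr mutants 3 and 4, 7 of 15 were above 0 in lhb/lhcgr mutants against controls. cebpa, a transcription factor gene of granulocyte development, had 5.43, 5.26, 12.6 and 11 CPM in lhb/lhcgr mutants, 4.78, 7.05, 5.17 and 6.07 CPM in fshb/lhcgr mutants, and 0.468, 1.70 and 5.23 CPM in controls. All lhb/lhcgr mutants were above all controls, as for 11.2% of all genes tested, with a log2 difference of 1.79 (SE 0.61, edgeR adjusted p = 0.0847). csf3r, the receptor gene of granulocyte colony-stimulating factor, gave 5, 2, 96 and 87 counts in lhb/lhcgr mutants, 6, 23, 23 and 32 counts in fshb/lhcgr mutants, and 9, 31 and 19 counts in controls. csf3r was lowest in lhb/lhcgr mutants 1 and 2, as mpx was, and highest in lhb/lhcgr mutants 3 and 4, whereas mpx was highest in fshb/lhcgr mutant 3. The transcription factor gene runx1, of early blood formation, had 2.35, 7.46, 9.62 and 11.1 CPM in lhb/lhcgr mutants, 1.09, 4.48, 2.86 and 3.78 CPM in fshb/lhcgr mutants, and 2.94, 3.83 and 1.83 CPM in controls, so that lhb/lhcgr mutants 2 to 4 were above all controls (1.41, edgeR adjusted p = 0.131). csf3b, a granulocyte colony-stimulating factor gene, averaged 11.4 CPM in lhb/lhcgr mutants, 7.41 CPM in fshb/lhcgr mutants and 6.26 CPM in controls (0.86 for lhb/lhcgr minus control, edgeR adjusted p = 0.181). irf8, which macrophage development needs in zebrafish, had 2.93 to 6.46 CPM in lhb/lhcgr mutants, 3.03 to 4.24 CPM in fshb/lhcgr mutants and 2.07 to 6.74 CPM in controls. A list of ligand genes of the Csf1 and Csf3 receptors also held csf3r and the transcription factor genes runx1, cebpa, irf8 and myb. Of its 8 tested genes, 8, 5 and 1 were above 0 in the same comparisons and none was called, beside the same shares of all genes tested. cebpa and csf3r are also in the neutrophil list and irf8 in the macrophage list, so these counts are not separate from those above.

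The NADPH oxidase of phagocytes makes superoxide. cybb, its catalytic subunit gene, had 2.11, 1.53, 10.7 and 9.82 CPM in lhb/lhcgr mutants, 1.84, 7.18, 4.63 and 2.79 CPM in fshb/lhcgr mutants, and 2.01, 6.60 and 2.58 CPM in controls. lhb/lhcgr mutants 3 and 4 were above every other library. cyba, which anchors the complex in the membrane, had 4.59, 4.28, 9.32 and 8.61 CPM in lhb/lhcgr mutants, 10.4, 14.1, 16.7 and 9.66 CPM in fshb/lhcgr mutants, and 15.4, 16.9 and 7.94 CPM in controls. Its log2 difference between lhb/lhcgr mutants and controls was negative (-1.0, edgeR adjusted p = 0.104), and neither gene was called in any comparison.

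Among 14 genes listed as shared by all leukocytes, 1 was called in lhb/lhcgr mutants against controls, near the 7.34% of all genes tested, and the same gene between the mutants, where 2.37% of all genes tested were called. wasb (ENSDARG00000026350), a Wiskott-Aldrich protein gene of actin assembly in blood cells, gave 92, 67, 218 and 123 counts in lhb/lhcgr mutants, 34, 33, 35 and 37 counts in fshb/lhcgr mutants, and 23, 35 and 47 counts in controls. Every lhb/lhcgr mutant was above every library of the other groups, where 11.2% of all genes tested were so against controls and 6.38% against fshb/lhcgr mutants. wasb rose in lhb/lhcgr mutants against controls (1.43, SE 0.38, edgeR adjusted p = 0.0388) and was lower in fshb/lhcgr than in lhb/lhcgr mutants (-1.41, SE 0.35, edgeR adjusted p = 0.0493), and leaving out 1 library ended the first call in 6 of 11 cases and the second in 8. The other 13 were not called. rac2, a GTPase gene of neutrophil migration, had 36.2 to 39.9 CPM in lhb/lhcgr mutants, 29.3 to 45.5 CPM in fshb/lhcgr mutants and 26.2 to 31.7 CPM in controls, and arpc1b, of the Arp2/3 complex, had 43.3 to 83.4, 66.3 to 110 and 48.5 to 107 CPM in the same groups. Also not called was the integrin gene itgb2, at 3.92, 7.46, 15.5 and 15.1 CPM in lhb/lhcgr mutants, 11.9, 12.9, 13.4 and 10.2 CPM in fshb/lhcgr mutants, and 3.28, 9.65 and 6.11 CPM in controls. The 14 genes summed to 200.7, 201.9, 253.2 and 261.9 CPM in lhb/lhcgr mutants 1 to 4. They summed to 227.4 to 277.5 CPM in fshb/lhcgr mutants and 175.5 to 247.6 CPM in controls. arhgdig and arpc1b, at means of 81.8 and 79.8 CPM over all libraries, made up most of each sum. Which cells gave these transcripts was not tested. For lhb/lhcgr minus control, fshb/lhcgr minus control and fshb/lhcgr minus lhb/lhcgr, 12, 14 and 10 of the 14 differences were above 0. Of all genes tested, 50.7%, 47.5% and 47.9% were. The medians of the 14 genes were 0.58, 0.72 and 0.20, the last opposite in sign to that of the 10 markers (-0.67). Among 13 tested relatives of the markers, the broadly expressed coronin gene coro1ca fell in lhb/lhcgr mutants (-0.58, SE 0.16, edgeR adjusted p = 0.0428), opposite in sign to the difference of coro1a. That is 1 call of 13, again near 7.34%, and it held in 8 of 23 alternatives, with adjusted p up to 0.154.

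Markers of other cells were read beside these. The 14 lymphocyte and natural killer cell genes found summed to 8.3 to 11.9 CPM in lhb/lhcgr mutants, 9.0 to 13.9 CPM in fshb/lhcgr mutants and 10.0 to 11.4 CPM in controls. cd8a and cd79b had 0 counts in every library. These low sums did not repeat the spread of the 10 markers among lhb/lhcgr mutants, but they do not describe each gene. Only 9 of the 14 were tested. Against controls, 4 of these 9 were above 0 in lhb/lhcgr mutants, where 50.7% of all genes tested were. Their median log2 difference was -0.71 (range -3.09 to 1.83), and none was called, where 7.34% of all genes tested were. The 12 erythrocyte genes summed to 115.6 to 216.1 CPM in lhb/lhcgr mutants, 156.5 to 264.9 CPM in fshb/lhcgr mutants and 85.9 to 139.9 CPM in controls. They were thus higher in all fshb/lhcgr mutants than in all controls, none of 11 tested was called in any comparison, and their part in the differences of the markers was not tested. The 14 endothelial genes summed to 114.7 to 132.0 CPM in lhb/lhcgr mutants, 135.2 to 275.1 CPM in fshb/lhcgr mutants and 165.0 to 293.7 CPM in controls. The vascular receptor genes kdrl and flt1 fell in lhb/lhcgr mutants (-1.51, SE 0.24, edgeR adjusted p = 0.00518, and -1.79, SE 0.35, edgeR adjusted p = 0.0126). Endothelial levels did not separate lhb/lhcgr mutants 3 and 4 (114.7 and 132.0 CPM) from lhb/lhcgr mutants 1 and 2 (115.9 and 121.8 CPM). Granulosa genes summed to 401.8 to 652.6 CPM in lhb/lhcgr mutants, 413.2 to 711.0 CPM in fshb/lhcgr mutants and 487.2 to 1053 CPM in controls. Of the 9 granulosa genes, hsd17b1 and fshr rose in lhb/lhcgr mutants (1.80 and 1.91, edgeR adjusted p = 0.0123 and 0.0220). Of the 10 theca and stroma genes, the collagen genes col1a1a and col1a2 and the steroidogenic gene star fell there (-1.15, -1.10 and -1.67, edgeR adjusted p = 0.0140, 0.0136 and 0.0309). Calls in lhb/lhcgr mutants against controls were thus 2 of 14 endothelial, 2 of 9 granulosa and 3 of 10 theca and stroma genes. Of all genes tested, 7.34% were called there. The granulosa sums were 401.8, 548.8, 652.6 and 560.2 CPM in lhb/lhcgr mutants 1 to 4, so libraries 3 and 4 were the highest of the group here too. The 6 thrombocyte genes summed to 48.5, 94.0, 182.6 and 237.0 CPM in lhb/lhcgr mutants 1 to 4, again highest in libraries 3 and 4. Their sums were 44.4 to 50.1 CPM in fshb/lhcgr mutants and 120 to 533 CPM in controls, highest in control 1. Only 3 of the 6 passed the expression filter. The median log2 difference of these from controls was 0.03 in lhb/lhcgr and 0.04 in fshb/lhcgr mutants, so the sums do not describe each gene. The 4 mast cell and eosinophil genes summed to 4.16 to 8.15, 0.751 to 6.66 and 5.11 to 7.69 CPM in lhb/lhcgr mutants, fshb/lhcgr mutants and controls. No tested gene of either list was called. The part of the granulosa and thrombocyte levels in the differences of the markers was not tested.

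**Figure D5:**
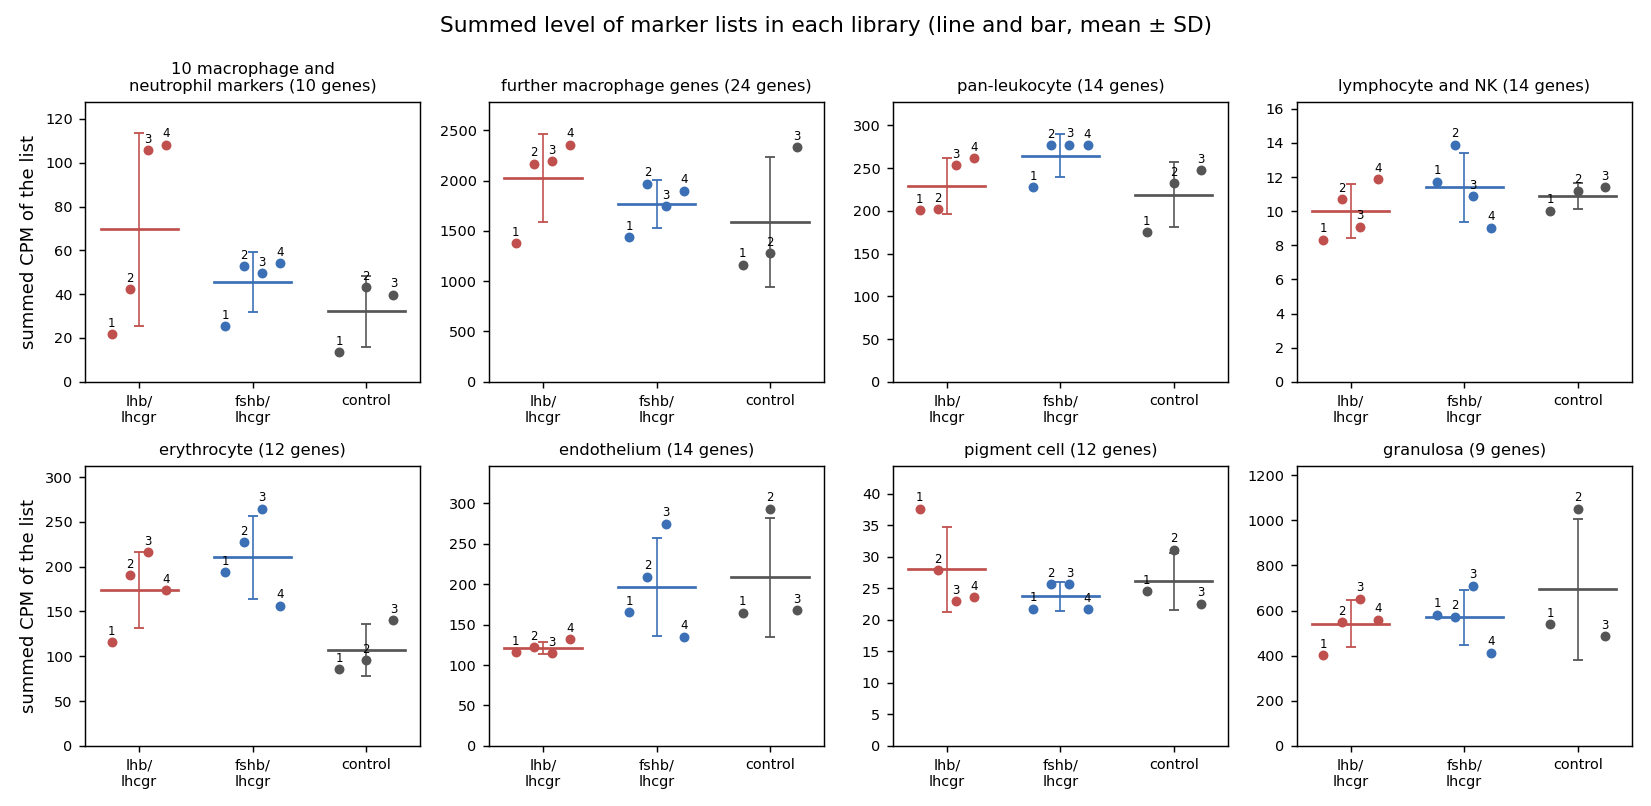
Summed CPM (vertical axis, from 0) of 8 marker lists in every library of the lhb/lhcgr mutant, fshb/lhcgr mutant and control groups, with the number of genes in the table above each panel, the mean as a line and the SD as a bar. The 10 macrophage and neutrophil markers are high in lhb/lhcgr mutants 3 and 4 and lower in lhb/lhcgr mutants 1 and 2. To a smaller extent, the pan-leukocyte, further macrophage and granulosa genes are also highest of that group in lhb/lhcgr mutants 3 and 4. In the macrophage and granulosa lists lhb/lhcgr mutant 2 is close to the lower of them. Control 3 in the macrophage list and control 2 in the granulosa list are above lhb/lhcgr mutant 3. The most abundant macrophage list gene, ctss2.1 (mean 1176 CPM over all libraries), is lowest in lhb/lhcgr mutant 3. Lymphocyte, endothelial and pigment cell genes do not show this order.

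Over the 11 libraries, the markers followed each other to different degrees. Pearson's r between a marker's log2 CPM and the mean z-score of the other 9 was 0.950 for mpeg1.1, 0.945 for csf1ra, 0.905 for spi1a, 0.819 for lcp1, 0.799 for marco, 0.777 for spi1b, 0.700 for csf1rb, 0.689 for coro1a, 0.598 for mpx and 0.0733 for lyz. By Spearman's rho lyz was again last (0.0866), but mpx (0.70) came above coro1a (0.591) and csf1rb (0.510). These values are descriptions, and the libraries share depth scaling and fall into the groups named. Among 10299 other genes with a mean of at least 5 CPM, the 5 most like the markers' mean z-score were asap1a (r = 0.922), rab4a (0.905), pfkla (0.900), asah1b (0.897) and nrros (0.892). nrros, known in mammals as a gene of microglia and macrophages, had 3.68, 2.75, 12.9 and 8.31 CPM in lhb/lhcgr mutants, 2.46, 7.05, 6.41 and 4.40 CPM in fshb/lhcgr mutants, and 1.81, 6.03 and 4.16 CPM in controls. The order of its libraries was close to that of the markers (Spearman's rho 0.955). All 5 genes were picked for likeness in these same libraries, so a close order follows from the choice.

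Libraries also differed in how level followed gene length. The slope of log2 CPM per doubling of length was -0.133 to 0.0114 in lhb/lhcgr mutants, -0.0319 to 0.00141 in fshb/lhcgr mutants and 0.0455 to 0.171 in controls, over 12439 genes. With that trend removed in each library, the medians of the 10 markers were 1.11 for lhb/lhcgr mutants against controls, 0.53 for fshb/lhcgr mutants against controls and -0.65 between the mutants, and none was called.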

How the data were processed

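Raw gene counts deposited by the authors are the main measurement. The authors' deposited FPKM divide a gene's value by its length, the same in every library. The library factor behind the deposited FPKM is not the total of the count table. The authors' deposited tables of each mutant group against controls give mean normalized signal, log2 fold changes and unadjusted p-values, and DESeq2 1.20.0 is named per the submitters' processing notes. The sources used here name no aligner, counter, strand setting, genome build or annotation. Coordinates are therefore left out, and reads of near copies (mpeg1.1 with mpeg1.2, csf1ra with csf1rb, spi1a with spi1b) may be split in unknown ways.

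Counts were tested in R 4.3.3 with edgeR 4.0.16 (filterByExpr, minimum count 10 and minimum total 15, TMM, robust quasi-likelihood fit of 3 group means over 11 libraries, 2-sided). Alternatives used DESeq2 1.42.0, limma 3.58.1 on log2(FPKM + 0.1), limma-voom, other scalings and filters, a replicate block, a length correction and left-out libraries. The medians of wider lists without control 1 or without lhb/lhcgr mutants 3 and 4 were alternatives chosen after seeing the data. The fits were checked on counts simulated with edgeR's own estimates of spread. Members and lists were chosen with earlier results of these data known. Of the list symbols, 20 matched no row. Named genes are all 10 markers, called list genes (at most 4 per list), the 4 most abundant genes of each leukocyte list, of which not all are printed, and the 5 genes most like the markers. Genes of the lists singled out beyond that (csf1a, csf1b, il34, csf3r, mpeg1.2 and spic) were chosen after their values were seen. A listed gene, and the summary of its list, are not reported here.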

Additional observations from a re-analysis of the deposited data

Results flagged for a closer look

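Outlying libraries were sought in 114 groups of 4 libraries, in which chance marks about 1 in 20, by comparing the gap of the highest or lowest library with the range of its group. The 5 found are no more than that share gives. The summed level of the 10 markers was 25.4 CPM in fshb/lhcgr mutant 1, against 49.8 to 54.2 CPM in the other fshb/lhcgr mutants, and the summed pan-leukocyte level was 227 CPM there, against 277 to 278 CPM. In lhb/lhcgr mutant 1 the further neutrophil genes summed to 123 CPM, against 1220 to 1440 CPM in the other lhb/lhcgr mutants. mmp13a alone, at 904, 808 and 980 CPM, made up most of the sums in lhb/lhcgr mutants 2 to 4, against 1.63 CPM in lhb/lhcgr mutant 1. The neutrophil genes mpx and csf3r were instead low in both lhb/lhcgr mutants 1 and 2. apoeb had 1.87 CPM in lhb/lhcgr mutant 1, against 448 to 520 CPM in the other lhb/lhcgr mutants. flt1 had 7 CPM in lhb/lhcgr mutant 1, against 5.13 to 5.39 CPM.

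The mutant groups differed from each other, fshb/lhcgr minus lhb/lhcgr, in the leukocyte gene wasb (log2 difference -1.41) and, outside the leukocyte lists, in kdrl (1.3), flt1 (1.33), col1a1a (1.64), col1a2 (1.76), dcn (1.1) and star (1.65), each called by edgeR. These calls held in 9 (wasb), 21 (kdrl), 8 (flt1), 22 (col1a1a), 23 (col1a2), 10 (dcn) and 11 (star) of 23 alternatives. They were 1 of 14 pan-leukocyte, 2 of 14 endothelial and 4 of 10 theca and stroma genes, where 2.37% of all genes tested were called.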

How the results depend on the processing

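With 3 or 4 libraries a group and markers at or below about 30 CPM, depth and replicate number limit every value here. Of 674 values of the markers under alternatives, 639 kept direction and side of the threshold, 5 passed it newly (all coro1a) and 30 changed sign, none of them called. DESeq2 called 1 marker in lhb/lhcgr mutants against controls and 1 in fshb/lhcgr against lhb/lhcgr mutants. It called 15.6% and 7.68% of all genes tested there. DESeq2 made more false calls than edgeR on counts simulated with edgeR's own spread estimates. With 1 library left out, edgeR called 0 to 1 markers in both comparisons. No alternative called a marker in fshb/lhcgr mutants against controls. Leaving out 1 library moved the median of the markers over 0.73 to 1.43, 0.05 to 0.82 and -0.98 to -0.11 in these comparisons (lhb/lhcgr minus control, fshb/lhcgr minus control, fshb/lhcgr minus lhb/lhcgr).

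Without lhb/lhcgr mutants 3 and 4 together, the median was -0.24 for lhb/lhcgr minus control and 0.70 for fshb/lhcgr minus lhb/lhcgr. Both shifts follow from leaving out the libraries highest for the markers. Single markers then changed sign in lhb/lhcgr mutants against controls (mpeg1.1 -0.37, marco -1.21, csf1ra -0.33, spi1b -0.16, lcp1 -0.42, mpx -2.60) and between the mutants (mpeg1.1 1.01, csf1ra 0.41, lcp1 0.99). In lhb/lhcgr mutants against controls, mpx was -0.47 with limma-voom and -0.27 with limma on FPKM. Leaving out 1 library, mpx ranged over -0.53 to 0.67 and marco over -0.28 to 0.58 there. In fshb/lhcgr mutants against controls, marco ranged over -0.0793 to 0.77, csf1ra over -0.32 to 0.47, csf1rb over -0.13 to 1.46 and coro1a over -0.0422 to 0.78, each lowest without control 1. Between the mutants, marco ranged over -0.0686 to 0.57 and spi1b over -0.0482 to 0.64.

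Same-numbered libraries did not all deviate together, with r of -0.110 to 0.165 and 5 of 10 pairs over 0.1. Among these were the 3 pairs numbered 1, at 0.147 to 0.165. Of 11 libraries, 5 were closest to one of their own number. The share that chance would give was not worked out, so these values do not decide whether the number marks a pairing. It is not used as one in the main fit because the sources used here do not say that it is. The authors' own library names also number controls and mutants differently. With the replicate block the medians were 0.76, 0.33 and -0.53, no marker was called, and marco (-0.16) and mpx (-1.03) against controls in lhb/lhcgr mutants, and marco (-0.0149) and csf1ra (-0.0289) in fshb/lhcgr mutants, changed sign. The share of all genes called in lhb/lhcgr mutants against controls was 15.6% with DESeq2, 4.86% with the block, 2.08% when control 1 was left out, 1.55% when lhb/lhcgr mutant 4 was, and 0.648% when lhb/lhcgr mutants 3 and 4 both were. With scaling by library size alone the median of all genes was 0.12 in that comparison, against 0.01 with TMM, and -0.15 between the mutants, against -0.02. Calls over all genes were then 848 higher and 578 lower, against 562 and 864 with TMM, and between the mutants 200 and 318, against 282 and 178. No marker changed direction. The cause of these changes was not tested.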
